A study of Mus musculus with 2 samples.

Results

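Histone acetylation is set by enzymes that add acetyl groups, enzymes that remove them, and proteins that bind the acetylated lysine. A list of 38 mouse genes of these kinds was followed here: 14 acetyltransferases, 11 zinc-dependent deacetylases, 7 sirtuins and 6 bromodomain readers. The list was drawn up by gene name and not filtered by measured values, but with earlier results of these data known. Of the 38 genes, 34 had a row among the 21216 gene rows of the count tables. Kat2b, Hdac9, Hdac11 and Sirt7 were not analysed here. A mean level over the 4 conditions of at least 10 CPM (gene counts scaled to a common total of 1e+06) was reached by 26 of the 34, as by 8901 genes in all.

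The cells were single mouse muscle stem cells, the resident stem cells of skeletal muscle, sorted by FACS into the wells of 384-well plates. Polyadenylated RNA was counted per well with a modified CEL-Seq2 protocol, which tags each molecule near its 3′ end with the barcode of the well. Plate 2 held cells cultured for 96 h with 10 mM galactose and cells cultured for 96 h with 5 mM glucose (low glucose). Plate 1 held cells cultured for 96 h with 25 mM glucose (high glucose) and freshly isolated cells, which the labels call quiescent. All 3 culture media were DMEM with 1 mM pyruvate, bovine and horse serum at 10% each, chick embryo extract and bFGF, so sugar was the stated difference between them. The labels used here give no strain, age or number of animals.

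Each plate was 1 library that held its 2 conditions, so each condition was measured once, cells are not replicates, and no test between conditions was possible and no p-value is given. Every 95% interval covers counting error only, and would be too narrow if the counts were reads and not molecules, which the sources used here leave unstated. A gene was called higher or lower when the ratio of the summed counts of the kept cells (the pool) of 2 conditions, after scaling to CPM, was at least 1.5 in either direction and its interval left out 1. Each condition filled 6 plate rows, and the range over rows describes the spread within a library.

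Acetyltransferases take the acetyl group from acetyl-CoA, a product of nutrient breakdown. Neutralising the charge of histone lysines loosens chromatin, and bromodomains then dock on the acetylated tails. Zinc-dependent deacetylases cut the group off, Hdac1, Hdac2 and Hdac3 among them within corepressor complexes, whereas sirtuins consume NAD in doing so. In muscle precursor cells, Ep300 and Kat2b are known as coactivators of Myod1, and Sirt1 as a deacetylase tied to the metabolic state of the cell.

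The promoters of Kat2a and Ncoa1 are shown because these genes moved farthest in opposite directions, among members whose plate rows did not overlap, between the conditions of plate 1. Both are RefSeq windows of 300 bases on GRCm38.p6, from 250 bases before the transcription start to 50 after it, at chr11:100712418-100712717 (minus strand, Kat2a) and chr12:4477133-4477432 (minus strand, Ncoa1). Capitals mark GGGCGG, the GC box bound by Sp1-type factors, and TGACG, the core of a cyclic AMP response element.
Kat2a: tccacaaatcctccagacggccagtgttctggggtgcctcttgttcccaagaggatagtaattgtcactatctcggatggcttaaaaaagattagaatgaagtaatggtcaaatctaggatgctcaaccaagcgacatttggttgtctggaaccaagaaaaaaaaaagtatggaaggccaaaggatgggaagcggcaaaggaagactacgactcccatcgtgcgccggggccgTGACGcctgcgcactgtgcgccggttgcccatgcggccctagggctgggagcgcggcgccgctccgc
Ncoa1: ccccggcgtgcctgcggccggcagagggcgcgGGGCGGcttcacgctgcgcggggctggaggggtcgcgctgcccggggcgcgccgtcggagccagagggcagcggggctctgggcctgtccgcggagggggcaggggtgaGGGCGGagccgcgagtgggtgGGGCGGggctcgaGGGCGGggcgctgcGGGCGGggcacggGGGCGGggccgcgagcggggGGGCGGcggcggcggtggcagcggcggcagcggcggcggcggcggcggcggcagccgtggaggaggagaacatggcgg
The Ncoa1 window held 7 GC boxes and was 84.7% G and C. The Kat2a window held 0 GC boxes and 1 TGACG, at 54.3% G and C.

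Promoter windows were found for 31 of the 38 genes, which have 44 windows with alternative starts counted, out of 32851 for all genes. Searched on both strands, GGGCGG occurred in 65.9% of the members' windows and 35.7% of all windows. TGACG was found in 31.8% of the members' windows and 20.8% of all windows, and CCGGAAGT, an ETS-factor site, in 15.9% of the members' windows and 3.89% of all windows. CCAAT was in 34.1% of the members' windows and 37.4% of all windows, and the E-box CACGTG in 9.09% of the members' windows and 7.15% of all windows. The members' windows had a median of 62% G and C, against 52.7% over all windows. Matches of each motif were counted on their own, whether or not they overlapped another motif. They are letters in a window and were not measured as bound sites.

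After 1 high glucose well with under 500 counts was left out, 456 of 457 wells remained: 121 galactose, 120 low glucose, 113 high glucose and 102 freshly isolated. The pools held 2035682 counts for galactose, 1734279 for low glucose, 887611 for high glucose and 284109 for freshly isolated cells, so the last has the widest intervals. The median cell had 47.8 gene counts per ERCC spike-in count in galactose, 47.7 in low glucose, 57.0 in high glucose and 18.3 when freshly isolated. All 10 listed muscle stem cell and myoblast markers had counts and summed to 2072 CPM in galactose, 2049.8 in low glucose, 1945 in high glucose cells and 6413 in freshly isolated cells. Freshly isolated cells held more of Myod1, the myogenic factor, at 871 CPM in galactose, 801 in low glucose, 705 in high glucose cells and 2446 in freshly isolated cells. Sdc4, a surface syndecan, was at 308 CPM in galactose, 344 in low glucose, 436 in high glucose cells and 2094 in freshly isolated cells, so these 2 genes made up most of that sum. Cd34, a surface marker of these cells, was lower when freshly isolated, at 258 CPM in galactose, 287 in low glucose, 280.5 in high glucose cells and 134 in freshly isolated cells. Pax7, the defining stem cell factor, was at 66.3 CPM in galactose, 54.8 in low glucose, 56.3 in high glucose cells and 119.7 in freshly isolated cells. The fibro-adipogenic markers with a row (6 of 11) summed to 31.4 CPM in galactose, 40.9 in low glucose, 143 in high glucose cells and 1151 in freshly isolated cells. The 8 smooth muscle and pericyte markers summed to 62.4 CPM in galactose, 75.0 in low glucose, 234 in high glucose cells and 634 in freshly isolated cells. The 8 endothelial markers lay at 7.86 CPM in galactose, 8.65 in low glucose, 45.1 in high glucose cells and 112.6 in freshly isolated cells. Markers with a row were 4 of 10 for immune cells, 3 of 7 for glia, 2 of 5 for tenocytes and 4 of 10 for mature myofibres. Each of these 4 lists summed to at most 63.4 CPM in any pool, but over part of its markers only, so absence of these cells was not shown. No listed marker with a row of any cell type was at 0 in every pool. The plates used the same set of well barcodes in part: 200 barcodes occurred on both, of 216 on plate 1 and 241 on plate 2.

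High glucose culture against freshly isolated cells compares cells after 96 h of culture with cells taken from the tissue, within 1 plate. Kat2a (GCN5, the acetyltransferase of the SAGA and ATAC complexes) was higher in culture and Ncoa1 (SRC-1, a coactivator of nuclear receptors with acetyltransferase activity) was lower. Brd2, a BET-family reader of acetylated histone tails, was also higher. Of the 26 members, 5 were called higher (22.0% of all genes tested) and 3 lower (12.0% of all genes tested), so the members' counts lay near the background. Hdac6, among those lower, passed the minimum only through its freshly isolated level. The members' median log2 ratio was 0.09, and that of all genes tested was 0.40.

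Kat2a (ENSMUSG00000020918) had 76 counts in high glucose cells and 8 in freshly isolated cells, or 85.6 CPM in high glucose against 28.2 CPM in freshly isolated cells. Its 6 high glucose rows ran from 47.1 to 114 CPM with a median of 85.5, and its 6 freshly isolated rows from 0 to 46.1 with a median of 31.0. The rows did not overlap, but only narrowly, at 46.1 against 47.1 CPM, and with 8 freshly isolated counts over 6 rows. The ratio was 3.04 (95% interval 1.47 to 7.30). Low glucose and galactose cells stood near the high glucose level, with 90.4 CPM in galactose and 76.7 CPM in low glucose.

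Among the MYST-family acetyltransferases, Kat7 (HBO1, which acetylates H3 and H4 with BRPF or JADE partners) had 134 counts in high glucose cells and 28 in freshly isolated cells. These were 151 CPM in high glucose cells and 98.6 CPM in freshly isolated cells, a ratio of 1.53 (1.01 to 2.39). Kat8 (MOF, which acetylates H4 lysine 16) had 40 counts or 45.1 CPM in high glucose cells against 5 counts or 17.6 CPM in freshly isolated cells, a ratio of 2.56 (1.01 to 8.31). For both genes the rows of the 2 conditions overlapped and the interval nearly touched 1. Kat5 and Kat6b, of the same family, were not called, at ratios of 1.32 (0.598 to 3.31) and 0.619 (0.321 to 1.24).

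Ncoa1 (ENSMUSG00000020647) had 43 counts or 48.4 CPM in high glucose cells and 46 counts or 162 CPM in freshly isolated cells. High glucose rows lay between 18.9 and 71.8 CPM with a median of 45.8, and freshly isolated rows between 92.1 and 264 with a median of 164.8. No row of one condition reached into the other, and the ratio was 0.299 (0.193 to 0.464). The low level was shared by the other cultures, with 67.3 CPM in galactose and 58.8 CPM in low glucose. Its paralogs did not pass the call: Ncoa2 had a ratio of 0.747 (0.368 to 1.61) and Ncoa3 of 1.64 (0.791 to 3.80).

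The p300 and CBP coactivators are the acetyltransferases of enhancers. Crebbp (CBP, ENSMUSG00000022521) had 245 counts or 276 CPM in high glucose cells and 94 counts or 331 CPM in freshly isolated cells, a ratio of 0.834 (0.655 to 1.07). Ep300 had 129 counts or 145 CPM in high glucose cells and 38 counts or 134 CPM in freshly isolated cells, a ratio of 1.09 (0.752 to 1.60). Neither was called, and both intervals held 1. The remaining acetyltransferases, Hat1 (which acetylates newly made H4) and Taf1 (the large TFIID subunit), were not called either. Of the 12 acetyltransferases past the minimum, 3 were called higher (22.0% of all genes tested) and 1 lower (12.0% of all genes tested). Their median log2 ratio was 0.25, against 0.40 over all genes tested, and Kat6a had at most 2 counts in any pool.

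Among zinc-dependent deacetylases, Hdac2 (a catalytic subunit of NuRD, Sin3 and CoREST) had 225 counts or 253 CPM in high glucose cells and 75 counts or 264 CPM in freshly isolated cells. Its ratio was 0.960 (0.736 to 1.26). Hdac1, its paralog in the same complexes, had 56 counts or 63.1 CPM in high glucose cells and 27 counts or 95.03 CPM in freshly isolated cells, a ratio of 0.664 (0.412 to 1.09). Hdac6, a mostly cytoplasmic enzyme that deacetylates tubulin, had 8 counts or 9.01 CPM in high glucose cells and 10 counts or 35.2 CPM in freshly isolated cells. Hdac6 was the called member of this class, at 0.256 (0.0878 to 0.721), and it passed the minimum only through its freshly isolated level. Its rows overlapped, from 0 to 19.0 CPM in high glucose and from 0 to 83.3 CPM in freshly isolated cells. Of the 5 past the minimum, 0 were called higher (22.0% of all genes tested) and 1 lower, Hdac6 (12.0% of all genes tested). Their median log2 ratio was −0.58, against 0.40 over all genes tested, but it includes Hdac6, which entered through its freshly isolated level. Of the others, Hdac3 had a ratio of 2.24 (0.874 to 7.33) and Hdac5 of 0.662 (0.347 to 1.32), neither called.

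Sirt2, a sirtuin found mainly in the cytoplasm, had 74 counts or 83.4 CPM in high glucose cells and 37 counts or 130.2 CPM in freshly isolated cells. It was called lower at 0.640 (0.426 to 0.977), with overlapping rows. The nuclear sirtuins Sirt1 and Sirt6 were not called. Sirt1 had 111 counts or 125 CPM in high glucose cells and 41 counts or 144 CPM in freshly isolated cells, at 0.867 (0.601 to 1.27), and Sirt6 had a ratio of 1.12 (0.497 to 2.84). The mitochondrial Sirt3, Sirt4 and Sirt5 stayed under the minimum.

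Brd2 (ENSMUSG00000024335) had the most counts of the readers, at 523 or 589 CPM in high glucose cells and 101 counts or 355 CPM in freshly isolated cells. The 6 high glucose rows ran from 450.2 to 830 CPM with a median of 602, and the 6 freshly isolated rows from 253 to 411 with a median of 355. They did not overlap, and the ratio was 1.66 (1.34 to 2.07). Brd3, another BET protein, had 31 counts or 34.9 CPM in high glucose cells and 3 counts or 10.6 CPM in freshly isolated cells, a ratio of 3.31 (1.03 to 16.9) that rests on those 3 counts. The call was kept in 5 of 12 removals of a plate row, and it was lost with TMM factors, with median-of-ratios factors, with a minimum of 2000 counts per well and after thinning. Brd8, a subunit of the TIP60 complex, had 86 counts or 96.9 CPM in high glucose cells and 23 counts or 81.0 CPM in freshly isolated cells, a ratio of 1.20 (0.748 to 1.99). Brd1, Brd7 and Brd9 were not called, and the readers together summed to 864 CPM in high glucose cells and 567 CPM in freshly isolated cells, a ratio of 1.52 (1.28 to 1.82). Brd2 made up most of that sum.

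Plate rows without overlap were seen for Kat2a and Brd2 (2 of 26, with 7.98% of all genes tested higher in every row) and for Ncoa1 (1 of 26, with 4.46% lower in every row). Summed over a class, the acetyltransferases stood at 1002 CPM in high glucose cells and 1017 CPM in freshly isolated cells, a ratio of 0.985 (0.861 to 1.13). The deacetylases summed to 416 CPM in high glucose cells and 482 CPM in freshly isolated cells, at 0.862 (0.707 to 1.06). The sirtuins summed to 260.2 CPM in high glucose cells and 313 CPM in freshly isolated cells, at 0.831 (0.648 to 1.07). The plot of log2 ratios by member shows that most intervals held 0.

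**Figure D1:**
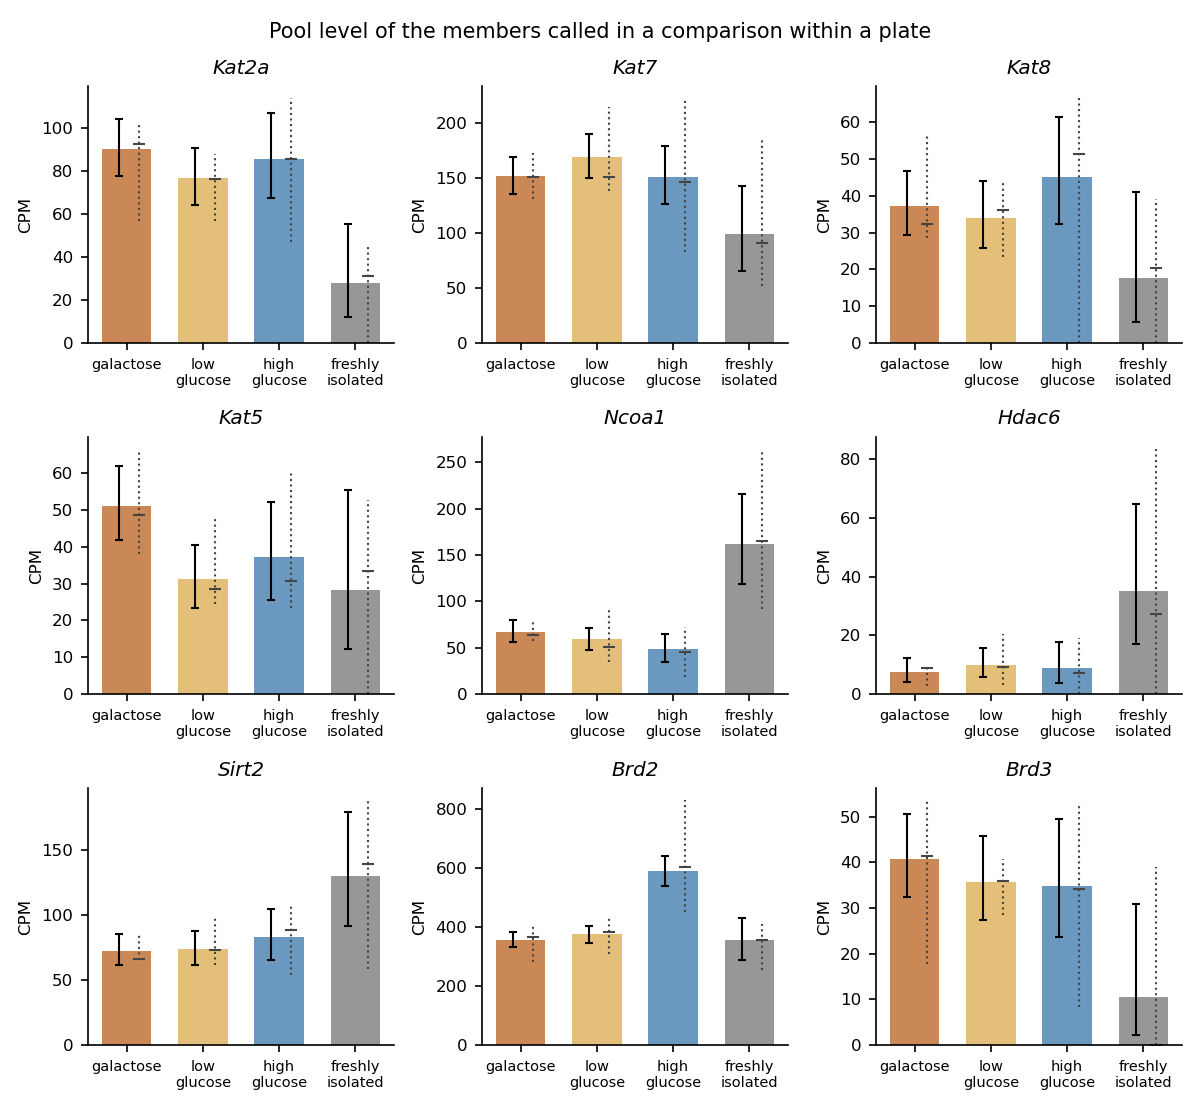
Level in CPM (y axis) in each condition (x axis) of the 9 members called within a plate; bars are pools, solid lines 95% counting intervals, dotted lines the range over 6 plate rows and short ticks the row median. Kat2a is low and Ncoa1 high in freshly isolated cells, while Brd2 is highest in high glucose at 589 CPM.

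**Figure D2:**
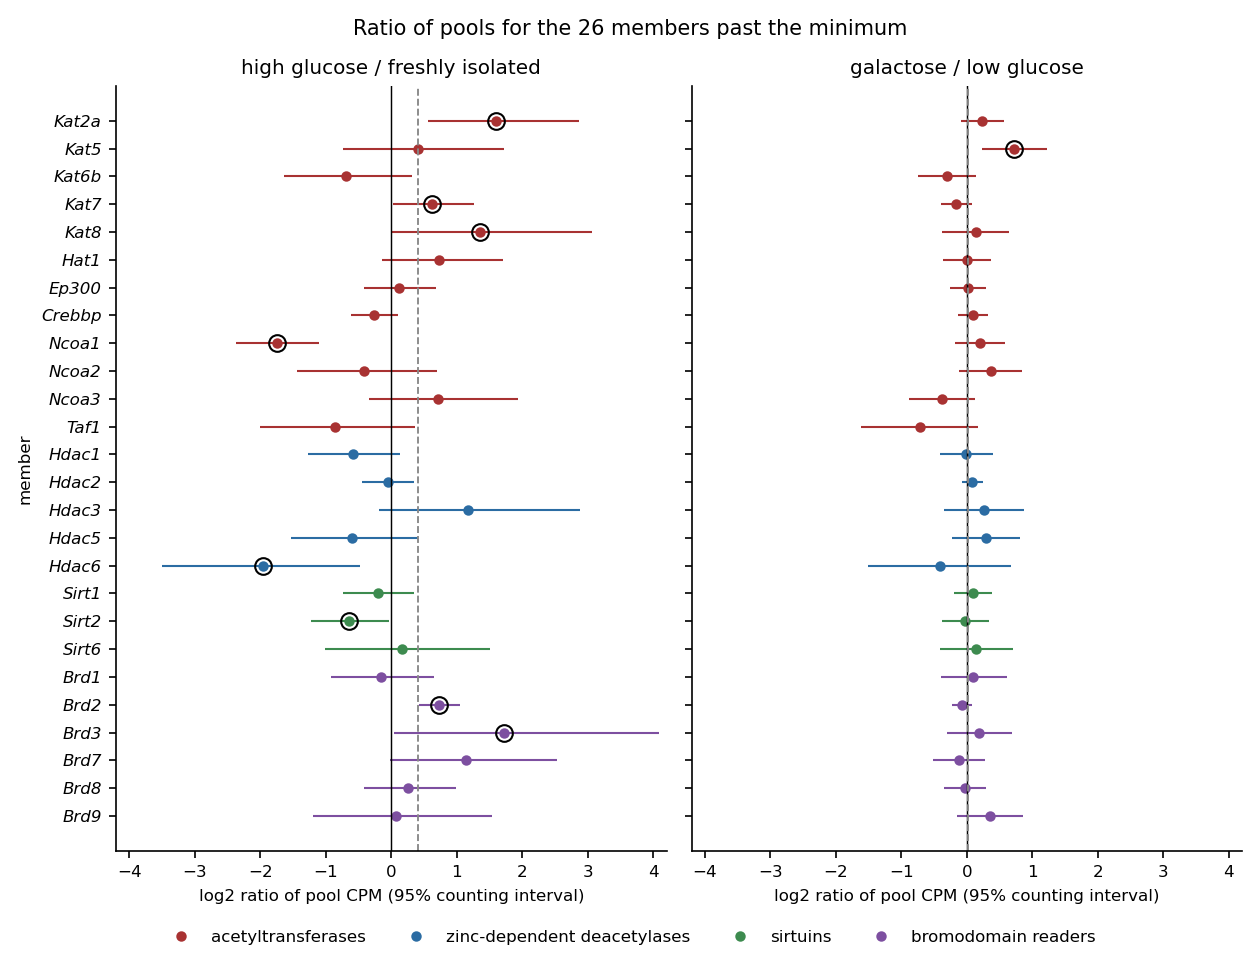
Log2 ratio of pool levels (x axis) for the 26 members past the minimum (y axis, coloured by class), for high glucose over freshly isolated cells on the left and galactose over low glucose on the right. Lines are 95% counting intervals, circles mark called members and the dashed line is the median of all genes tested, 0.40 on the left and 0.01 on the right.

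Scaling bears on these calls. Freshly isolated cells yielded fewer gene counts per spike-in count. Relative to spike-ins, Ncoa1 had 2.92 counts per 1000 spike-in counts in high glucose cells and 3.18 in freshly isolated cells, a ratio of 0.918, and Hdac6 a ratio of 0.786. Among the members past the minimum, those 2 were the ones with a spike-in ratio under 1: Kat2a reached 9.33, Brd2 5.09, Crebbp 2.56 and Sirt2 1.96. On that scale 22 members were called higher and 0 lower, and 79.6% of all genes were called higher and 2.22% lower. With TMM factors 1 member was higher (Kat2a, 2.55) and 4 lower, and over all genes 14.3% were higher and 15.9% lower. Brd2 then had a ratio of 1.39 and was no longer called.

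Fibro-adipogenic, endothelial and smooth muscle markers were higher in the freshly isolated pool, as given above. Among freshly isolated wells, 7 held 3 or more fibro-adipogenic markers, 9 smooth muscle and pericyte markers and 2 endothelial markers. Marker levels after removal of such wells are not given, so what remained of other cell types was not tested. Without the wells that held 3 or more markers of the same other cell type, Kat2a had a ratio of 2.68, Brd2 of 1.64, Ncoa1 of 0.230 and Hdac6 of 0.234, all still called, with 6 members higher and 3 lower. Brd3 moved to 7.49 there, and Kat7 was not called, at 1.48. After every cell was thinned to 1000 counts, Kat2a kept its direction at 2.28 but was not called.

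Galactose against low glucose, within plate 2, asks how the replacement of glucose by galactose bears on these genes. As background, galactose enters glycolysis slowly, and cells grown on it rely more on respiration. Kat5 (TIP60, the acetyltransferase of the NuA4 complex, which acts in transcription and DNA repair) was the called member, higher in galactose. Thus 1 of 26 was higher (1.51% of all genes tested) and 0 lower (1.28% of all genes tested). The members' median log2 ratio was 0.08, and that of all genes tested was 0.01.

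Kat5 (ENSMUSG00000024926) had 104 counts or 51.1 CPM in galactose and 54 counts or 31.1 CPM in low glucose. The galactose rows ran from 37.96 to 66.5 CPM with a median of 48.6, and the low glucose rows from 24.4 to 47.9 with a median of 28.5. The rows overlapped, and the ratio was 1.64 (1.17 to 2.32). No member had rows apart in this comparison, where 0.169% of all genes tested were higher in every row and 0.101% lower. High glucose cells had 37.2 CPM and freshly isolated cells 28.2 CPM. A count of Kat5 was found in 49.6% of galactose cells and 37.5% of low glucose cells. After thinning to 1000 counts per cell, 6 of 121 galactose cells and 2 of 120 low glucose cells kept a count, and the ratio of 2.98 was no longer called.

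The abundant members gave tight intervals around 1 in this comparison. Brd2 had 725 counts or 356 CPM in galactose and 650 counts or 375 CPM in low glucose, at 0.950 (0.854 to 1.06). Hdac2 had 687 counts or 337 CPM in galactose and 553 counts or 319 CPM in low glucose, at 1.06 (0.945 to 1.19). Crebbp had 358 counts or 176 CPM in galactose and 287 counts or 165 CPM in low glucose, at 1.06 (0.907 to 1.25). For counting error between these pools, the intervals leave out a change of 1.5-fold either way. They hold no spread between libraries, cultures or animals, so they do not bound an effect of the sugar. Kat7 lay at 0.896 (0.761 to 1.05), Ep300 at 1.01 (0.837 to 1.22) and Sirt1 at 1.06 (0.869 to 1.31).

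Sums over classes hardly differed between the sugars of plate 2. The acetyltransferases summed to 893 CPM in galactose and 870 CPM in low glucose, at 1.03 (0.959 to 1.10). The deacetylases reached 495 CPM in galactose and 462 CPM in low glucose, at 1.07 (0.974 to 1.18). Sirtuins summed to 227 CPM in galactose and 223 CPM in low glucose, at 1.02 (0.887 to 1.17), and readers to 620.4 CPM in galactose and 629.7 CPM in low glucose, at 0.985 (0.908 to 1.07). Less abundant members had wider limits, as for Taf1, with 20 counts in galactose and 28 in low glucose, at 0.609 (0.325 to 1.12).

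Low glucose and galactose against high glucose set plate 2 against plate 1, so plate and medium cannot be told apart. Both comparisons also share the high glucose cells. Low glucose cells had 1 member higher (7.92% of all genes tested) and 4 lower (10.8% of all genes tested), and galactose cells 1 higher (9.34% of all genes tested) and 5 lower (12.1% of all genes tested). Median log2 ratios of the members were −0.16 in low glucose and −0.16 in galactose, with −0.03 and −0.01 over all genes tested.

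Brd2, at 356 CPM in galactose, 375 CPM in low glucose and 589 CPM in high glucose, was lower in both. Its ratio to high glucose was 0.604 (0.539 to 0.678) in galactose and 0.636 (0.566 to 0.715) in low glucose, and in each case all rows lay below those of high glucose. With TMM factors the low glucose ratio was 0.683 and not called, and it was also not called without high glucose row H. Rows apart in this way were seen over all genes tested for 3.26% of genes lower in galactose and 2.06% lower in low glucose. With Brd2 as its main part, the sum of readers had a ratio of 0.718 (0.656 to 0.786) in galactose and 0.729 (0.664 to 0.800) in low glucose. Crebbp was at 176 CPM in galactose, 165 CPM in low glucose and 276 CPM in high glucose. That made 0.637 (0.540 to 0.753) in galactose and 0.600 (0.504 to 0.714) in low glucose, with overlapping rows. Its galactose call was lost with TMM factors (0.690), and after thinning neither was called, at 0.606 in galactose and 0.901 in low glucose.

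Brd1 (BRPF2), a scaffold of Kat7 and Kat6 complexes, was lower too, at 0.607 (0.425 to 0.872) in galactose and 0.567 (0.388 to 0.828) in low glucose. Ncoa3 at 0.607 (0.409 to 0.906) and Taf1 at 0.459 (0.233 to 0.909) were lower in galactose. Hdac3, a class I enzyme that works within corepressor complexes, was lower in low glucose at 0.585 (0.362 to 0.948). On the other side, Brd9, a subunit of the non-canonical BAF complex, was higher in galactose at 1.61 (1.01 to 2.68). Kat6b was higher in low glucose at 1.59 (1.03 to 2.50), with 42.2 CPM in galactose, 51.9 CPM in low glucose and 32.7 CPM in high glucose. All its low glucose rows lay above those of high glucose, as for 2.46% of all genes tested, and no member had all galactose rows above them (3.33% of all genes tested). Of these calls, that of Hdac3 was kept in 6 of 12 removals of a plate row and lost with TMM factors, that of Brd9 in 5 of 12 and that of Kat6b in 8 of 12. With spike-in scaling the calls of Brd9 (1.39) and Kat6b (1.33) were lost. After thinning, none of Hdac3, Brd9, Kat6b, Ncoa3 and Taf1 was called, and Brd1 turned to ratios of 1.23 in galactose and 2.18 in low glucose.

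The balance within pairs of related genes does not depend on how the pools are scaled. Shares are of the pair's counts, were computed for 8 pairs picked after the counts were seen, and are compared across conditions only, not read as which gene is more abundant. Ncoa1 was 68.2% of Ncoa1 and Ncoa3 in galactose, 59.0% in low glucose, 48.3% in high glucose cells and 83.6% in freshly isolated cells. The odds of Ncoa1 to Ncoa3 in high glucose were 0.185 of those in freshly isolated cells (0.0709 to 0.441). Against Ncoa2 the same fold was 0.403 (0.165 to 0.942). Both folds rest on few freshly isolated counts, 9 of Ncoa3 and 12 of Ncoa2, of which 4 lay in 1 well. Across plates the fold of Ncoa1 to Ncoa3 was 2.28 (1.33 to 3.94) for galactose over high glucose. For low glucose over high glucose the Ncoa1 to Ncoa3 fold was 1.53 (0.889 to 2.66).

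Hdac1 took 14.1% of Hdac1 and Hdac2 in galactose, 14.9% in low glucose, 19.9% in high glucose cells and 26.5% in freshly isolated cells. The fold of the odds was 0.692 (0.397 to 1.23) for high glucose over freshly isolated cells. Across plates, where plate and medium cannot be told apart, it was 0.661 (0.458 to 0.961) for galactose over high glucose. For low glucose over high glucose it was 0.705 (0.483 to 1.03), an interval that held 1. Crebbp was 59.0% of Crebbp and Ep300 in galactose, 57.7% in low glucose, 65.5% in high glucose cells and 71.2% in freshly isolated cells. Its fold across plates was 0.720 (0.540 to 0.959) for low glucose over high glucose and 0.757 (0.574 to 0.998) for galactose over high glucose. Within plate 1 the fold was 0.768 (0.483 to 1.21) for high glucose over freshly isolated cells. Kat7 was 78.2% of Kat7 and Kat6b in galactose, 76.5% in low glucose, 82.2% in high glucose cells and 65.1% in freshly isolated cells, with a fold of 2.46 (1.08 to 5.50) for high glucose over freshly isolated cells. Within plate 2, each of the 8 pairs had an interval that held 1, as for Hdac1 and Hdac2 at 0.938 (0.692 to 1.27).

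**Figure D3:**
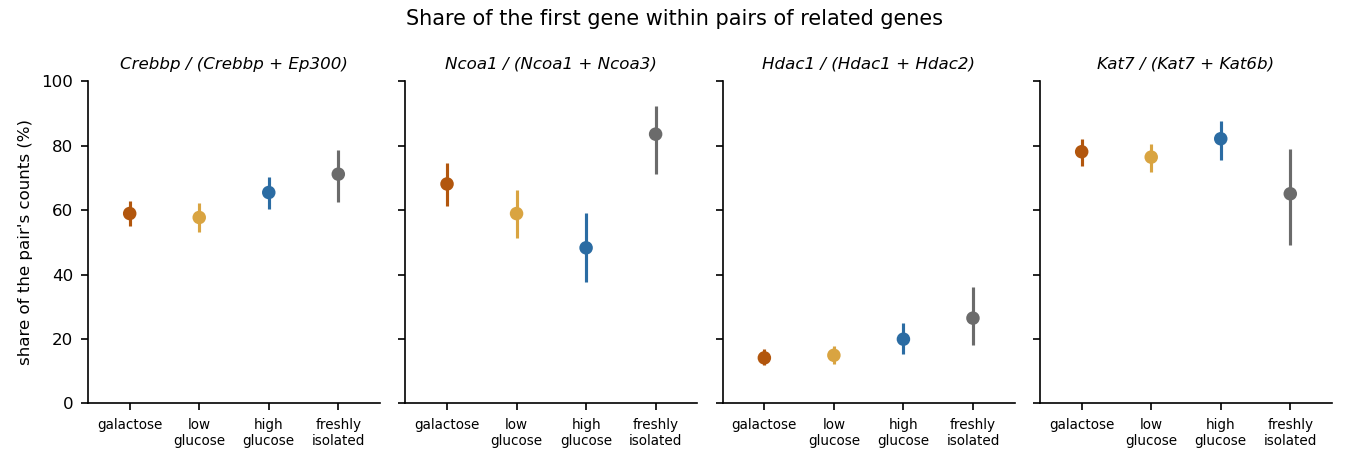
Share of the first gene (y axis, percent of the counts of both) in 4 pairs of related genes, by condition (x axis), with points for pools and lines for exact binomial 95% intervals. Ncoa1 makes up 48.3% of its pair with Ncoa3 in high glucose cells and 83.6% in freshly isolated cells.

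Per cell, detection follows depth, so each cell was thinned to 1000 counts, which left out 1 high glucose cell. Brd2 was then found in 32.2% of galactose, 29.2% of low glucose, 46.4% of high glucose and 28.4% of freshly isolated cells. Unthinned, the shares were 97.5% in galactose, 98.3% in low glucose, 93.8% in high glucose cells and 58.8% in freshly isolated cells. High glucose cells stood highest only after thinning.

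Hdac2 was found after thinning in 34.7% of galactose, 25% of low glucose, 17.9% of high glucose and 17.6% of freshly isolated cells. Unthinned it was found in 93.4% of galactose, 93.3% of low glucose, 77.9% of high glucose and 44.1% of freshly isolated cells. Galactose and high glucose cells were on different plates, and their order changed with depth. At 500 counts per cell the shares of Hdac2 were 14.0% of galactose and 17.7% of high glucose cells, and at 2000 they were 47.5% of galactose and 38.9% of high glucose cells. Crebbp was found in 14.0% of galactose, 18.3% of low glucose, 21.4% of high glucose and 27.5% of freshly isolated cells after thinning. Its unthinned shares were 90.1% in galactose, 87.5% in low glucose, 75.2% in high glucose cells and 60.8% in freshly isolated cells. Ncoa1 kept a count in 4.96% of galactose, 3.33% of low glucose, 0.893% of high glucose and 12.7% of freshly isolated cells, where the high glucose value is 1 of 112 cells. At 500 counts per cell its shares were 4.42% of high glucose and 5.88% of freshly isolated cells, and at 2000 they were 12.0% of high glucose and 24.4% of freshly isolated cells. Unthinned, its shares were 58.7% in galactose, 44.2% in low glucose, 31.0% in high glucose cells and 36.3% in freshly isolated cells. For Kat2a the thinned shares were 8.26% in galactose, 10.8% in low glucose, 8.04% in high glucose cells and 3.92% in freshly isolated cells, with overlapping intervals. The unthinned ones were 66.9% in galactose, 64.2% in low glucose, 44.2% in high glucose cells and 7.84% in freshly isolated cells.

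**Figure D4:**
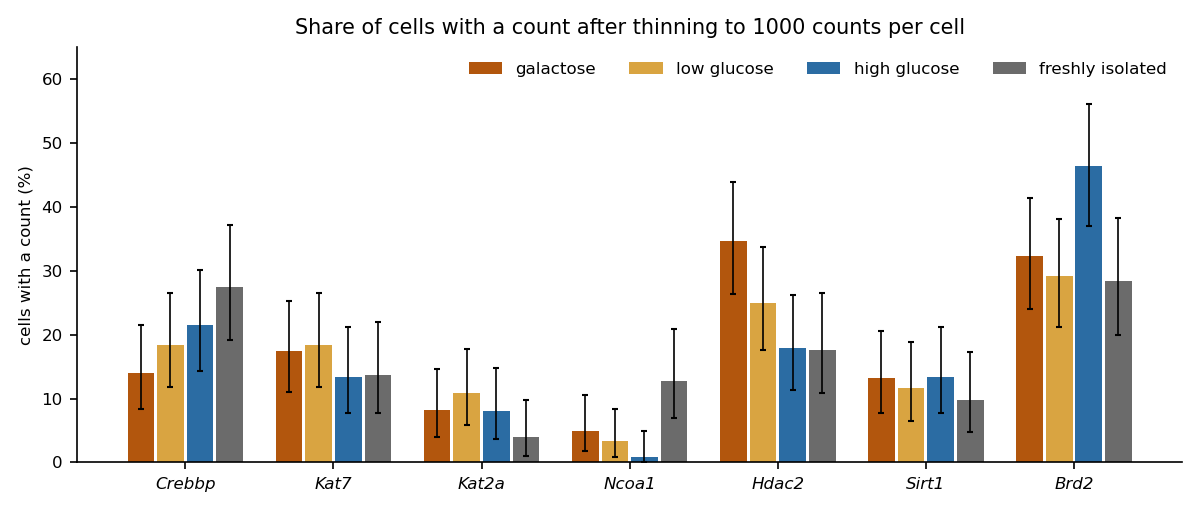
Share of cells with a count (y axis, percent) of 7 members (x axis) after thinning each cell to 1000 counts; bars are conditions and lines exact binomial 95% intervals. Brd2 has its highest share in high glucose (46.4%), as it does at 500 counts (23.0%) and at 2000 (68.5%), whereas the order of the conditions for Hdac2 changes with that depth.

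Members under the minimum were counted but not compared. Hdac8, a class I enzyme, had 20 counts in galactose, 9 in low glucose, 4 in high glucose cells and 3 in freshly isolated cells. The class IIb enzyme Hdac10 had 22 in galactose, 16 in low glucose, 8 in high glucose cells and 1 in freshly isolated cells. Hdac7, of class IIa, had 15 in galactose, 15 in low glucose, 2 in high glucose cells and 0 in freshly isolated cells, where a count of 0 allows up to 10.6 CPM (3 counts). Hdac4 had 1 count in all, in freshly isolated cells, and no row in the table of plate 2. The mitochondrial sirtuins Sirt3, Sirt4 and Sirt5 had 11, 13 and 4 counts in galactose, 13, 12 and 7 in low glucose, 6, 10 and 2 in high glucose, and 1, 0 and 2 in freshly isolated cells. Kat6a, a MYST enzyme, had 1 count in galactose, 2 in low glucose, 0 in high glucose cells and 2 in freshly isolated cells. Of the class IIa deacetylases, which repress MEF2 in muscle, Hdac5 passed the minimum, at 38.8 CPM in galactose, 31.7 CPM in low glucose, 34.9 CPM in high glucose cells and 52.8 CPM in freshly isolated cells. It was not called in any comparison.

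Partner subunits of the same complexes are given by list, for high glucose over freshly isolated cells first. Each count reads against the 22.0% of all genes tested that were called higher, the 12.0% called lower and their median log2 ratio of 0.40. All partner calls use total counts and were not repeated with other scalings. With spike-in scaling 79.6% of all genes tested were higher and 2.22% lower. Spike-in counts were nearly equal, at 14738 for the high glucose pool against 14474 for the freshly isolated pool. Every partner called lower in this comparison had more counts in the high glucose pool, as Ing3 with 40 against 31. None of these calls of lower holds on the spike-in scale, so they are relative to total counts only. Of 18 SAGA and ATAC subunits past the minimum, 3 were higher and 1 lower, with a median log2 ratio of 0.53, against 0.40 over all genes. Taf12, a histone-fold subunit, had 32 counts in high glucose cells against 1 count in freshly isolated cells, a ratio of 10.2 with a counting interval of 1.71 to 417. Wdr5, a scaffold of ATAC and MLL complexes, was at 199 CPM in high glucose cells against 119.7 CPM in freshly isolated cells, a ratio of 1.67 (1.15 to 2.48). Of 15 NuA4/TIP60 subunits, 3 were higher and 3 lower, with a median of 0.40, as over all genes. Actl6a, an actin-related subunit, had 155 CPM in high glucose cells against 42.2 CPM in freshly isolated cells, at 3.68 (2.04 to 7.30). The ATPase Ruvbl1 had 139 CPM in high glucose cells against 42.2 CPM in freshly isolated cells, at 3.28 (1.81 to 6.52). The 3 called lower were Ing3 at 0.413 (0.252 to 0.683), Mbtd1 at 0.570 (0.364 to 0.909) and Morf4l2 at 0.665 (0.542 to 0.819), named after their values were seen.

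The MYST partners had 4 higher (22.0% of all genes) and 1 lower (12.0% of all genes) of 13, with a median of −0.06 against 0.40 over all genes. Kansl1, a scaffold of the NSL complex of Kat8, was at 158 CPM in high glucose cells against 84.5 CPM in freshly isolated cells, a ratio of 1.87 (1.21 to 3.01). Hcfc1, host cell factor, was at 392 CPM in high glucose cells against 637 CPM in freshly isolated cells, a ratio of 0.615 (0.513 to 0.741). NuRD, Sin3 and CoREST subunits had 2 higher and 5 lower of 18, with a median of 0.22 against 0.40 over all genes. Mbd2 and Mbd3, which occupy NuRD in place of each other, were called in opposite directions by total counts. With 71 Mbd2 counts in high glucose cells and 69 in freshly isolated cells, and nearly equal spike-in counts, its lower call is lost with spike-in scaling. Mbd2, which binds methylated DNA, had 80.0 CPM in high glucose cells and 243 CPM in freshly isolated cells, at 0.329 (0.233 to 0.466). Mbd3 had 167 CPM in high glucose cells against 45.8 CPM in freshly isolated cells, at 3.64 (2.07 to 7.01).

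Among 19 other bromodomain and YEATS genes 2 were higher (22.0% of all genes) and 4 lower (12.0% of all genes), with a median of −0.20 against 0.40 over all genes. The BAF ATPase Smarca4 was at 187 CPM in high glucose cells against 56.3 CPM in freshly isolated cells, a ratio of 3.32 (1.99 to 5.95). Baz1a, the partner of an ISWI remodeller, was at 169 CPM in high glucose cells against 324 CPM in freshly isolated cells, a ratio of 0.522 (0.400 to 0.684).

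Genes that supply acetyl-CoA had 1 higher (22.0% of all genes) and 1 lower (12.0% of all genes) of 7, with a median of 0.39 against 0.40 over all genes. Dlat, the E2 subunit of pyruvate dehydrogenase, had a ratio of 2.47 (1.31 to 5.14). The mitochondrial citrate carrier Slc25a1 had one of 0.493 (0.287 to 0.862). Genes of NAD supply and use had 2 higher and 0 lower of 4, with a median of 1.91 against 0.40 over all genes. They were Nadk, which makes NADP from NAD, at 2.53 (1.64 to 4.10), and Parp2, which consumes NAD, at 6.24 (1.62 to 53.4) on 39 counts in high glucose cells against 2 in freshly isolated cells. The 9 genes of this list with a row summed to 420 CPM in high glucose cells and 239 CPM in freshly isolated cells. That was a ratio of 1.76 (1.35 to 2.31), a smaller rise than the median of the 4.

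In galactose over low glucose, the same lists are read against 1.51% of all genes tested called higher, 1.28% lower and a median log2 ratio of 0.01. NuA4/TIP60 had 1 higher of 15, Dmap1, with 29 counts in galactose and 12 in low glucose, at 2.06 (1.02 to 4.43). MYST partners had 1 higher of 13, Jade3, at 50.6 CPM in galactose against 32.3 CPM in low glucose, a ratio of 1.57 (1.12 to 2.21). NuRD, Sin3 and CoREST subunits had 1 lower of 18, Rcor1, at 23.1 CPM in galactose against 36.9 CPM in low glucose, a ratio of 0.626 (0.420 to 0.926). SAGA and ATAC, other bromodomain and YEATS, acetyl-CoA and NAD genes had 0 called either way, of 18, 19, 7 and 4. List medians lay between −0.09 and 0.08.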

How the data were processed

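The authors deposited raw, unscaled counts by gene and by well, as seen in the values, whole numbers with unequal totals. Per the labels, bases 1 to 6 of the first read held the UMI and bases 7 to 14 the barcode. No source used here states whether UMIs were collapsed, or names the aligner, build or annotation, and edgeR appears in the submitters' processing notes with no version or role. Conditions came from the deposited well sheet.

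Wells needed 500 gene counts and 250 genes. Counts were pooled per condition and scaled to CPM without ERCC spike-ins, and 99.6% of gene rows received a symbol from GENCODE M21. Intervals were exact Poisson (levels), Clopper-Pearson (shares and, conditionally, ratios) and exact conditional (odds). Medians used log2 with a pseudocount of 1 CPM. Named genes were members called within a plate, the 2 members with most counts per class, and up to 2 called partners per list with the interval bound farthest from 1. Other members were added by name after their values were seen. Members and lists were chosen with earlier results of these data known. Scripts were tested on simulated data. Python 3.11.15, scipy 1.17.1, R 4.3.3 and edgeR 4.0.16 (TMM factors only) were used. No doublet caller was run. Some partner genes are not reported here.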

Additional observations from a re-analysis of the deposited data

How the results depend on the processing

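No paired analysis was possible because each condition was measured in 1 library and no test was run. For high glucose over freshly isolated cells, the members called higher numbered 1 with TMM factors, 1 with median-of-ratios factors, 22 with spike-in scaling, 3 without mitochondrial transcripts, 3 at a minimum of 50 CPM, 1 after thinning and 3 at a ratio of 2. Leaving out a plate row in turn gave 3 to 6. Those called lower numbered 0 with spike-ins, 1 after thinning and 1 to 4 without a row, and the median log2 ratio was 1.65 with spike-ins. Sirt2 reversed to 1.96 with spike-ins and 1.11 after thinning. Over the row removals Kat2a, Ncoa1 and Brd2 kept their calls in 12 of 12, Hdac6 in 10, Kat7 in 7, Sirt2 in 6, Brd3 in 5 and Kat8 in 4. The median of all genes was 0.40 by total counts, 0.16 with TMM, 0.12 with median-of-ratios factors and 1.96 with spike-ins, and with median-of-ratios factors 13.2% of genes were higher and 16.5% lower.

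For galactose over low glucose, members called higher numbered 0 at 50 CPM, after thinning and at a ratio of 2, and 1 to 2 without a row, with a median of −0.11 after thinning. Kat5 kept its call in 9 of 10 other settings and 12 of 12 row removals. For low glucose over high glucose, those higher numbered 0 with spike-ins, at 50 CPM, after thinning and at a ratio of 2, and 0 to 1 without a row. Those lower numbered 2 with TMM, 1 after thinning, 0 at a ratio of 2 and 3 to 4 without a row, and the median was −0.42 with spike-ins and 0.31 after thinning. For galactose over high glucose, those higher numbered 3 with TMM, 0 with spike-ins, 2 without wells with markers of another type, 0 at 50 CPM, 0 at a ratio of 2 and 0 to 2 without a row. Those lower numbered 3 at 50 CPM, 1 after thinning, 1 at a ratio of 2 and 3 to 6 without a row, and the median was −0.37 with spike-ins. After thinning Brd1 reversed to 2.18 (low glucose) and 1.23 (galactose) over high glucose. Over all genes, low glucose over high glucose had 11.4% higher and 7.89% lower with TMM (median 0.07) and 2.92% higher and 21.9% lower with spike-ins (median −0.28). Galactose over high glucose had 13.6% higher and 8.66% lower with TMM (median 0.10) and 4.19% higher and 20.5% lower with spike-ins (median −0.22). The cause of these shifts was not tested. Fewer genes remain at 50 CPM and fewer counts after thinning, and depth limits most the freshly isolated pool of 284109 counts.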
